A study of Mus musculus with 12 samples.

Results

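Complement components, receptors and regulators were measured in the hippocampus of CREB and CREM mutant mice and of control mice. CREB and CREM are transcription factors that bind cAMP response elements. The rule took every probe set of the array whose annotation named exactly 1 gene among C1qa, C1qb, C1qc, C3, C3ar1 and Serping1, and a probe set annotated to both C4a and C4b. It found 6 of 8571 distinct gene annotations (C4a and C4b share 1), measured by 7 of 12422 tested probe sets: 1 each for C1qa, C1qc, C3ar1, Serping1 and C4a/C4b, and 2 for C1qb. No probe set carried C3 as its only symbol, so C3 was not analysed here. The genes were chosen with the genotype differences of these arrays in view, so the genotype values below are a description without a test.

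There were 4 groups of 3 arrays: mutants given kainate, controls given kainate, mutants given saline and controls given saline. Male and female littermates aged 5 to 6 weeks were caged singly and handled for 5 days. They received an injection of kainate (20 mg/kg), which excites neurons through glutamate receptors, or of saline into the peritoneum and were killed after 1 hour. Each array carried total RNA pooled from the hippocampi of 3 animals, so the spread between arrays is a spread between pools. The labels give no allele, promoter or Cre line for the mutants.

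Complement is a cascade of proteins that tags cells and debris for removal. In the classical pathway C1q, a hexameric complex of chains made from C1qa, C1qb and C1qc, binds a target and activates the proteases C1r and C1s, which cleave C4 and then C2. The cleavage of C3 follows, and its small fragment C3a signals through the receptor C3ar1. Serping1 encodes the C1 inhibitor, which blocks C1r and C1s. In the brain C1q is made largely by microglia, and it is known for marking synapses that microglia then remove. C4b is also made by astrocytes and is a common marker of their reactive state.

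The promoters of C1qb, C1qc and C3ar1 are shown because the mice were mutant for CREB and CREM and had higher C1q levels than controls. Which cells lacked these factors is not given in the labels, and a link to the C1q levels was not tested. RefSeq (GRCm38.p6) places C1qb, C1qc and C1qa next to each other on chromosome 4, C4a and C4b on chromosome 17, C3ar1 on chromosome 6 and Serping1 on chromosome 2. The promoter table held 3 of these 7 genes, each with 250 bases before and 50 bases after the gene start, written 5′ to 3′ along the gene. Capitals mark the motifs found:
C1qb, chr4:136886151-136886450, minus strand: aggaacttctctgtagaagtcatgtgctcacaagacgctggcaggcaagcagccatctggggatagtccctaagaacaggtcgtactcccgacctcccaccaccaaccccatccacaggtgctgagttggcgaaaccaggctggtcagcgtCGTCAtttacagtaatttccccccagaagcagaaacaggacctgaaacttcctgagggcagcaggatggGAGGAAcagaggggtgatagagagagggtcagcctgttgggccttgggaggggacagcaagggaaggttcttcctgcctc
C1qc, chr4:136892865-136893164, minus strand: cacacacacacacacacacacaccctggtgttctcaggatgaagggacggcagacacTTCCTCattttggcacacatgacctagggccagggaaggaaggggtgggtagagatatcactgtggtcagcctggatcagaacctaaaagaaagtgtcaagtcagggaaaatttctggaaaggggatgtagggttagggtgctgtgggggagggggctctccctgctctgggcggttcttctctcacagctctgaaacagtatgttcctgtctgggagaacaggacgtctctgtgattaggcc
C3ar1, chr6:122856108-122856407, minus strand: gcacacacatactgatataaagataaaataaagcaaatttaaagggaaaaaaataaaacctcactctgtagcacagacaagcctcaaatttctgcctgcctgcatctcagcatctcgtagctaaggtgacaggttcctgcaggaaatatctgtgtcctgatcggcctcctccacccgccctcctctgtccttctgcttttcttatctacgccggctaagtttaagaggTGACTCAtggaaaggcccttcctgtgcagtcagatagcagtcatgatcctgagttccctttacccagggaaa

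Motifs were searched on both strands. The full cAMP response element TGACGTCA was in 0 of the 3 promoters and in 1.79% of all 32851 promoters of that length. Its shorter core TGACG, which also lies inside the full element, was in the C1qb promoter, on the opposite strand and starting 99 bases before the gene start (position -99), and in 20.8% of all promoters. GAGGAA, a core bound by ETS factors such as the microglial factor PU.1, was in the C1qb promoter at -30 and on the opposite strand of the C1qc promoter at -193, and in 28.3% of all promoters. TGANTCA, the AP-1 motif, was in the C3ar1 promoter at -22 and in 7.81% of all. The STAT motif TTCNNNGAA was in 0 of the 3 and in 8.3% of all. These matches describe letters and not bound sites.

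Values are log2 expression values as the authors deposited them, so a difference of 1 is a 2-fold difference. Before the results, some features of the arrays need stating. The arrays correlated at 0.973 to 0.998 across probe sets, and their medians lay between 4.23 and 4.47. The control kainate replicate 3 array stood apart, its interquartile range being 3.74 where the remaining 11 had 4.40 to 4.61. The replicate 1 arrays of the 4 groups also deviated together from their group means (correlations of 0.368 to 0.848). The averaged difference between mutants and controls was -0.29 (SE 0.07) for the brighter Crem probe set and -0.25 (SE 0.07) for the dimmer one. The 3 Creb1 probe sets, at percentiles 26.0 to 45.0 of the mean levels, gave -0.09 to -0.12. In limma none of these passed (adjusted p = 0.141, 0.286 and 0.63). The brighter Crem probe set had -0.51 under kainate (adjusted p = 0.0889 in limma) and -0.08 under saline (SE 0.10 each). The labels do not say which exons were disrupted, so these values do not test the genotypes. The list of 5 neuronal markers averaged 9.84 to 10.4 on single arrays, and the list of 7 neutrophil and monocyte markers 2.55 to 2.95.

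**Figure D1:**
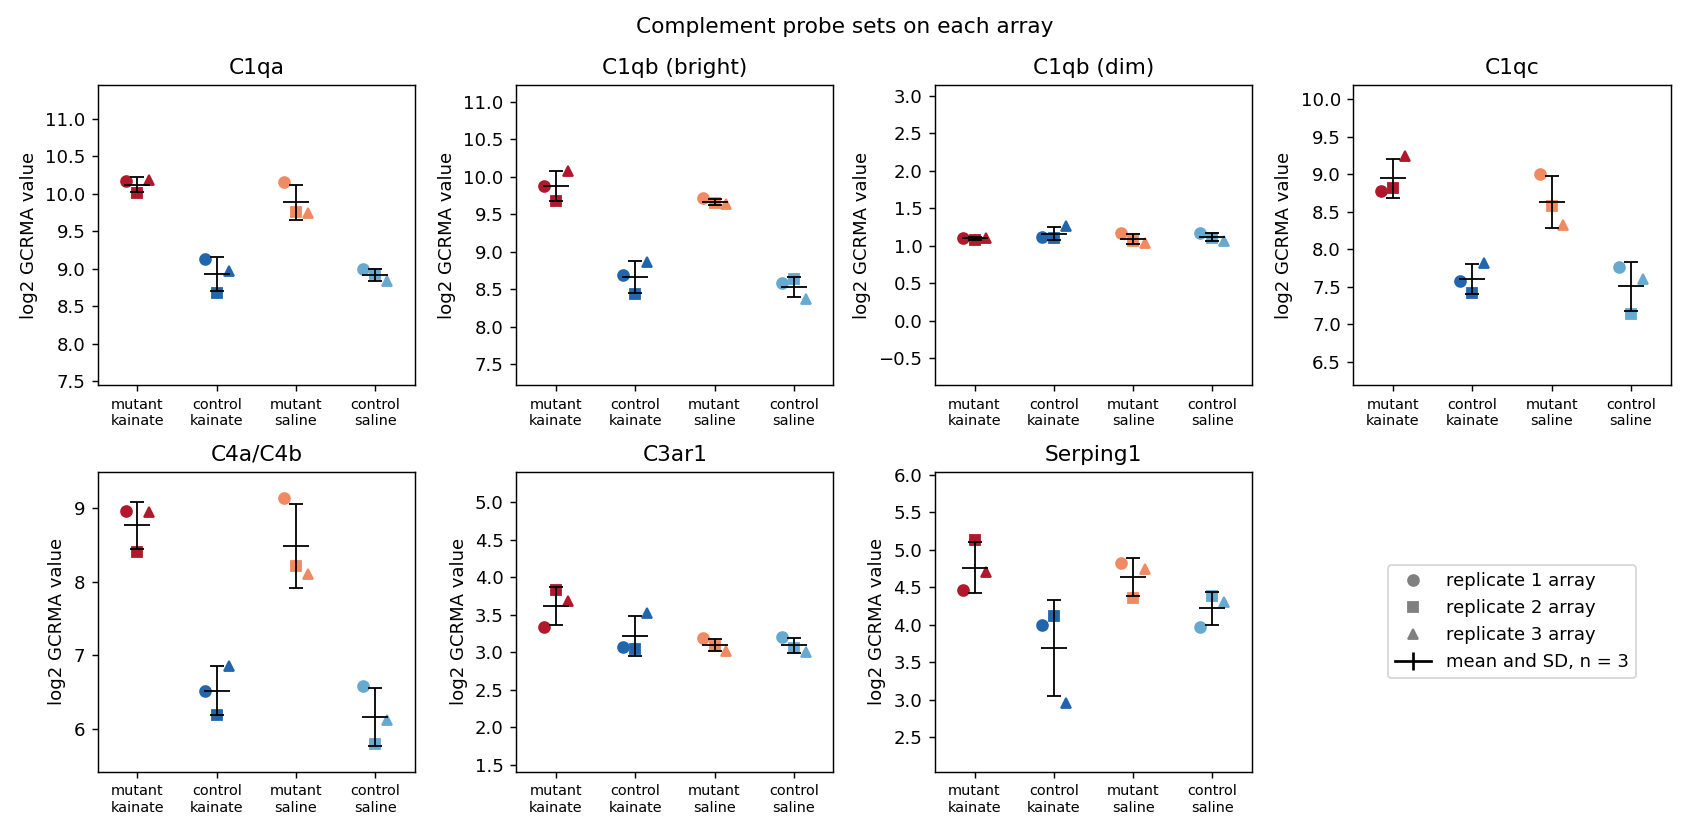
Log2 values (vertical axis) of the 7 complement probe sets on each of the 12 arrays, by group (horizontal axis), with circles, squares and triangles for replicates 1, 2 and 3 and bars for the mean and SD (n = 3). The mutant arrays of C1qa, C1qb (bright probe set), C1qc and C4a/C4b lie above all control arrays, while the dim C1qb probe set stays between 1.04 and 1.26.

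The 3 C1q subunit genes stood at about 2 times the control level in mutants under both treatments. C1qa had log2 values of 10.17, 10.01 and 10.19 in mutant kainate arrays, against 9.13, 8.68 and 8.97 in control kainate arrays. Under saline C1qa had 10.16, 9.76 and 9.75 in mutants, against 8.99, 8.93 and 8.83 in controls. Every mutant array lay above every control array. The difference between mutants and controls was 1.19 under kainate and 0.97 under saline (SE 0.14 each), or 1.08 averaged (SE 0.10), a 2.12-fold level.

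C1qb behaved alike on its bright probe set. It had 9.87, 9.68 and 10.07 in mutant kainate arrays, against 8.69, 8.44 and 8.86 in control kainate arrays. The saline arrays had 9.71, 9.65 and 9.63 in mutants, against 8.58, 8.63 and 8.37 in controls. The averaged difference was 1.17 (SE 0.09), with 1.21 under kainate and 1.14 under saline, and the genotypes did not overlap. The other, dim C1qb probe set lay at percentile 2.13 of the mean levels on the array and between 1.04 and 1.26 on every array, with an averaged difference of -0.04 (SE 0.05). The 2 probe sets of C1qb disagree, and averaged together they gave 0.57.

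C1qc, the third chain gene, had 8.77, 8.82 and 9.24 in mutant kainate arrays, against 7.58, 7.41 and 7.82 in control kainate arrays. Under saline C1qc had 9.0, 8.57 and 8.32 in mutants, against 7.77, 7.14 and 7.60 in controls. The lowest mutant array again lay above the highest control array. Its averaged difference was 1.24 (SE 0.15), with 1.34 under kainate and 1.13 under saline (SE 0.21 each).

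The C4a/C4b probe set had the widest gap of the 7 between the genotypes. It had 8.96, 8.40 and 8.95 in mutant kainate arrays, against 6.52, 6.19 and 6.85 in control kainate arrays. In saline arrays it had 9.15, 8.22 and 8.11 in mutants, against 6.58, 5.80 and 6.12 in controls. The averaged difference was 2.29 (SE 0.21), a 4.88-fold level, with 2.25 under kainate and 2.32 under saline (SE 0.30 each). The replicate 1 array was the highest in both saline groups, and within replicates 2 and 3 the averaged difference was 2.18. C4b encodes the complement protein C4 and C4a a closely related copy, and this probe set cannot tell their transcripts apart. Another probe set with both symbols, which the rule did not take, ran from 3.42 to 4.14 and had an averaged difference of -0.12 (SE 0.11). Averaging both probe sets gave 1.08.

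Serping1, the C1 inhibitor, had 4.46, 5.12 and 4.70 in mutant kainate arrays, against 4.0, 4.11 and 2.95 in control kainate arrays. Under saline it had 4.82, 4.35 and 4.75 in mutants, against 3.97, 4.39 and 4.29 in controls. The genotypes did not overlap under kainate, but did under saline. The difference was 1.07 under kainate and 0.42 under saline (SE 0.29 each), and 0.75 averaged (SE 0.21). The lowest value belonged to the control kainate replicate 3 array, and without it the difference under kainate was 0.70 and the averaged one 0.56.

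C3ar1, the C3a receptor, had 3.34, 3.83 and 3.69 in mutant kainate arrays, against 3.07, 3.05 and 3.52 in control kainate arrays. The saline values were 3.18, 3.09 and 3.02 in mutants, against 3.21, 3.06 and 3.01 in controls. The saline groups overlapped, and the kainate groups overlapped through the control kainate replicate 3 array. The difference was 0.40 under kainate and 0.01 under saline (SE 0.15 each), and without that array 0.56 under kainate. With array weights it was 0.60 under kainate, where C3ar1 then passed the threshold, in a fit whose share of passing probe sets was not counted. The saline difference ran from -0.04 to 0.06 over 22 alternatives and was above 0 in 18 of them. The probe set lay at percentile 33.4 of the mean levels.

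**Figure D2:**
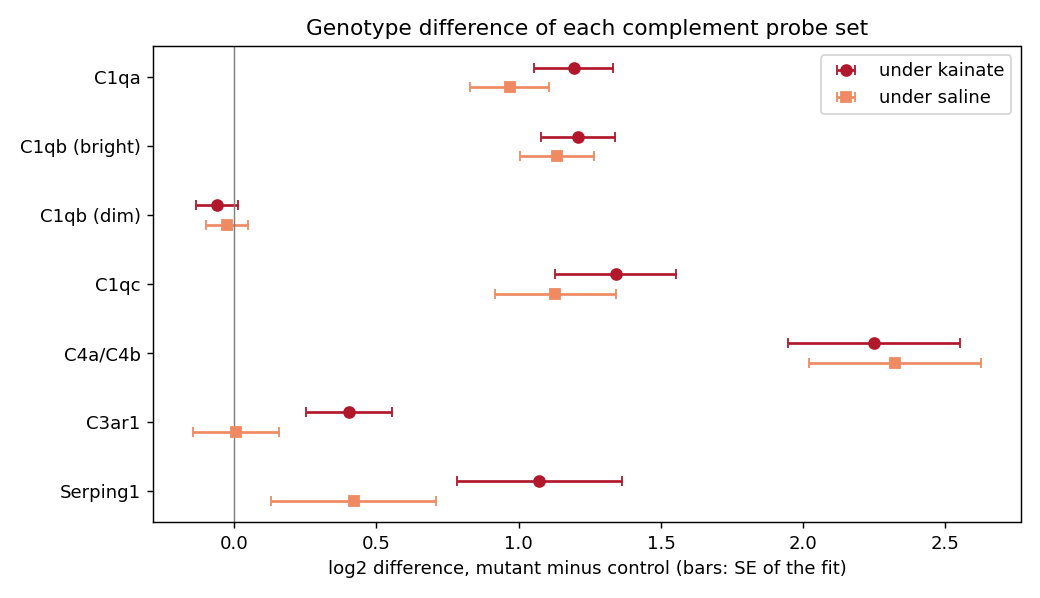
Log2 difference between mutants and controls (horizontal axis, with the SE of the fit as bars) for each of the 7 probe sets (vertical axis), with circles for kainate and squares for saline. The C4a/C4b probe set lies at 2.25 and 2.32 and the bright C1q probe sets between 0.97 and 1.34, while the dim C1qb probe set lies at -0.06 and -0.02.

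In limma the members past an adjusted p of 0.05 numbered 4 of 7 for the averaged genotype difference (C1qa, C1qb, C1qc and C4a/C4b), where 0.612% of all probe sets passed. They numbered 4 under kainate, where 0.354% of all passed, and 3 under saline, where 0.137% of all passed, C1qc being the one that did not. Groups without overlap and with mutants higher were found for 4 of 7 members over all arrays, 5 under kainate and 4 under saline, against 0.733%, 4.03% and 3.85% of all probe sets. The median of the averaged difference was 1.08 over the members and -0.06 over all probe sets. Since the genes were chosen on this contrast, these counts are given without reading anything from them. The count under kainate was 2 without mutant kainate replicate 1, mutant kainate replicate 3 or control kainate replicate 2. The count under saline was 1 without mutant saline replicate 2, control saline replicate 2 or control saline replicate 3. Over the 12 fits without single arrays, C1qc kept its call under kainate in 4 and C1qa its call under saline in 4. C4a/C4b kept each of these calls in 9, while C1qa under kainate and the bright C1qb probe set under both treatments kept theirs in 12.

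The kainate contrasts ask whether complement transcripts moved within 1 hour of the injection. They were not the contrast the genes were chosen on, but they share its arrays, and the interaction equals the genotype difference under kainate minus that under saline. These tests are therefore not independent of the choice of genes. No complement probe set passed in either genotype. In mutants 0 of 7 passed in limma, where 0.298% of all probe sets did. There 1 member had an unadjusted p under 0.05, as did 780 of all 12422 probe sets. In controls 0 of 7 passed, where 0.33% of all did, and 0 had an unadjusted p under 0.05, against 915 of all 12422 probe sets. The median kainate difference of the members was 0.23 in mutants and 0.10 in controls, against -0.02 and 0.05 over all probe sets.

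For the C1q subunits, with the bright probe set for C1qb, the kainate differences in mutants were 0.23 for C1qa (95% interval -0.07 to 0.54), 0.21 for C1qb (-0.08 to 0.50) and 0.31 for C1qc (-0.16 to 0.78). In controls they were 0.01 for C1qa (-0.30 to 0.31), 0.14 for C1qb (-0.15 to 0.42) and 0.10 for C1qc (-0.37 to 0.57). These intervals leave out a 2-fold rise of each subunit in both genotypes. They include smaller shifts in both directions. For C4a/C4b the differences were 0.28 in mutants (-0.39 to 0.95) and 0.35 in controls (-0.32 to 1.02). For Serping1 they were 0.12 in mutants (-0.52 to 0.76) and -0.53 in controls (-1.17 to 0.11), which was -0.16 without control kainate replicate 3.

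C3ar1 was the member with the unadjusted p under 0.05. Its 3 mutant kainate arrays lay above the 3 mutant saline arrays, with a difference of 0.52 (95% interval 0.19 to 0.86). A non-overlapping rise of this kind was found in 4.98% of all probe sets. In limma the adjusted p was 0.422, and in controls the difference was 0.12 (-0.21 to 0.46), or -0.03 without control kainate replicate 3. Array weights, which gave the control kainate replicate 3 array a weight of 0.032 and the replicate 2 arrays of the saline groups 5.88 in mutants and 6.17 in controls, brought 4 members past the threshold in mutants: C3ar1 (0.60, adjusted p = 0.0014 in limma), C1qa (0.37, adjusted p = 0.0178), C1qc (0.53, adjusted p = 0.0481) and C4a/C4b (0.59, adjusted p = 0.0461). The share of all probe sets past the threshold with these weights was not counted, so the 4 cannot be set against it. The other alternatives run left the count in mutants at 0.

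**Figure D3:**
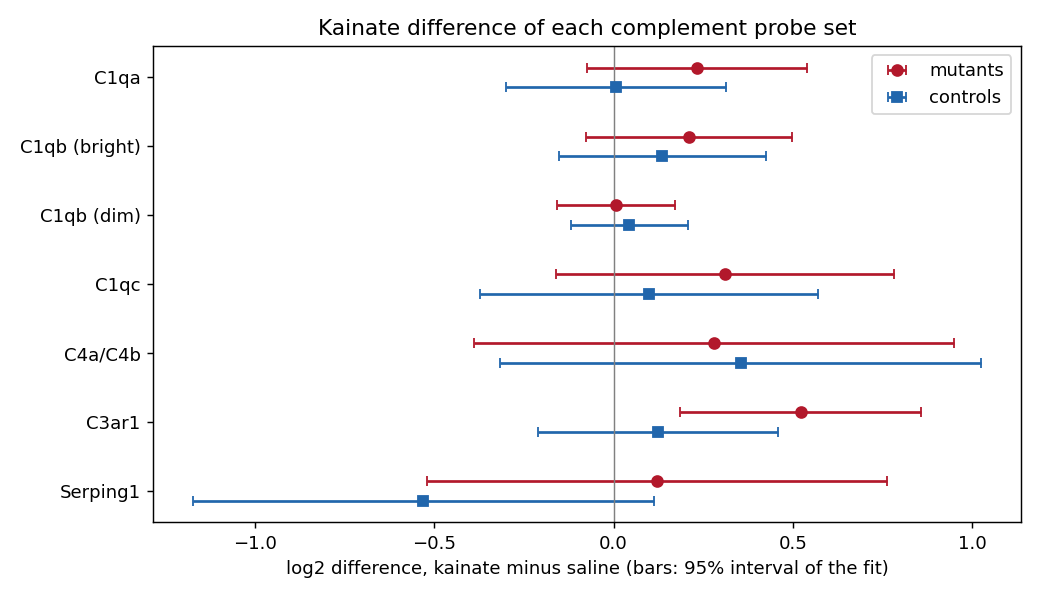
Log2 difference between kainate and saline arrays (horizontal axis, bars for the 95% interval of the fit) for each of the 7 probe sets (vertical axis), with circles for mutants and squares for controls. The intervals include 0 for every probe set in both genotypes except C3ar1 in mutants, at 0.52 (0.19 to 0.86).

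Whether the kainate difference depended on genotype was asked by the interaction, the difference in mutants minus that in controls. In limma 0 of 7 members passed and 0% of all probe sets did. An unadjusted p under 0.05 was found for 0 members and for 107 of all probe sets. The interaction was 0.65 for Serping1 (95% interval -0.26 to 1.56), 0.40 for C3ar1 (-0.08 to 0.87) and 0.22 for C1qa (-0.21 to 0.66). It was 0.21 for C1qc (-0.45 to 0.88), 0.07 for C1qb (-0.33 to 0.48) and -0.08 for C4a/C4b (-1.02 to 0.87). The adjusted p lay between 0.939 and 0.969 for these 6 probe sets. Without control kainate replicate 3 the value for Serping1 was 0.28.

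The bright members followed each other across arrays. Over the 12 arrays Pearson's r was 0.975 between C1qa and C1qb, 0.956 between C1qa and C1qc and 0.945 between C1qb and C1qc. With C4a/C4b it was 0.977, 0.968 and 0.978. These points share the genotype gap. With the group means removed r was 0.624, 0.580 and 0.423 for the same pairs of subunits. With C4a/C4b it was then 0.779, 0.530 and 0.853 for C1qa, C1qb and C1qc. For Serping1 the same values were -0.157, -0.613 and -0.360 with the subunits and -0.456 with C4a/C4b. Same-numbered arrays also deviated together over all probe sets (0.368 to 0.848 for replicate 1). The part of this in the values with group means removed was not tested.

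Among 5681 single-gene probe sets brighter than the median, the 5 most like the C1q subunit mean over 12 arrays were Tyrobp, a signalling adaptor of microglia (r = 0.968), the histone gene H1f2 (0.962), the macrophage gene Mpeg1 (0.959), Gfap, the filament protein of astrocytes (0.947), and Srebf1, a lipid synthesis factor (0.928). With group means removed their r was 0.387, -0.20, 0.458, 0.727 and 0.252. Those most like C4a/C4b were Gfap (0.968), H1f2 (0.949), Mpeg1 (0.945), Tyrobp (0.945) and the receptor gene Csf1r (0.937). With group means removed Gfap kept 0.842 and Csf1r 0.687, while Tyrobp had 0.113 and H1f2 -0.34. The gene most like C3ar1 was Rgs10 (0.962) and that most like Serping1 was Cavin3 (0.927).

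The values of Gfap show the likeness to C4a/C4b by array. Gfap had 11.07, 11.15 and 11.26 in mutant kainate arrays, against 9.60, 9.61 and 9.78 in control kainate arrays. Under saline it had 11.48, 10.62 and 10.32 in mutants, against 9.69, 8.64 and 8.85 in controls. As for C4a/C4b, the replicate 1 array was the highest of each saline group, which also held for C1qa and C1qc. In mutant kainate arrays the 2 differed, replicate 1 being the lowest for Gfap (11.07) but the highest for C4a/C4b (8.96).

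Of 11 microglial markers measured, 6 were higher in mutants in limma for the averaged difference, 0 lower and 5 did not pass (median 0.82), where 0.612% of all probe sets passed. Those that passed were Tyrobp, Mpeg1, Csf1r, Ctss, Laptm5 and Cd52, while Fcer1g and Ptprc lay at -0.01 and -0.02. Their mean level ran from 6.56 to 6.77 in mutant kainate arrays against 5.65 to 5.85 in control kainate arrays, and from 6.27 to 6.51 in mutant saline arrays against 5.51 to 5.58 in control saline arrays. The lowest of them was Cx3cr1, a receptor that defines microglia, at a mean of 3.25. Of 8 astrocyte markers 1, Gfap, was higher (median 0.18), and the list mean ran from 8.66 to 9.44 in mutants and from 8.40 to 9.10 in controls. In whole tissue, more cells of a type and more RNA per cell cannot be told apart, and the part of either in the complement differences was not tested. None of the 7 neutrophil and monocyte markers passed, and their averaged differences ran from -0.14 to -0.04. None of 7 meningeal and fibroblast, 4 choroid plexus, 8 endothelial and blood or 3 liver markers passed (medians 0.15, 0.16, 0.14 and -0.08). The choroid plexus list had a median of 0.55 under kainate, the contrast in which Serping1 was set furthest apart, and its part in that result was not tested.

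Set against the microglial markers on the same array, the C1q subunit mean lay 2.99 ± 0.11 log2 units above the list mean in mutants and 2.73 ± 0.14 in controls (SD, n = 6 each). With both treatments together these ranges were 2.81 to 3.14 in mutants and 2.52 to 2.93 in controls, and they overlapped. Under kainate alone they did not overlap, at 2.94 to 3.06 in mutants and 2.52 to 2.82 in controls (n = 3 each). Under saline they overlapped, at 2.81 to 3.14 in mutants and 2.65 to 2.93 in controls (n = 3 each). Of single probe sets, 4.03% had mutants higher without overlap under kainate. How often offsets of this kind separate was not counted. The C4a/C4b probe set lay 2.10 ± 0.37 above the same list in mutants and 0.72 ± 0.32 in controls (SD, n = 6 each). Its ranges, 1.70 to 2.66 in mutants and 0.21 to 1.06 in controls, did not overlap. Against the astrocyte list the C4a/C4b probe set lay at -0.52 ± 0.71 in mutants and -2.48 ± 0.57 in controls (SD, n = 6 each). Only the change of these offsets between arrays can be read, since levels of different probe sets are not comparable. It depends on the markers listed, whose averaged genotype differences ran from -0.02 to 2.32. Cd52 (2.32), Tyrobp (1.76), Mpeg1 (1.43) and Cd68 (1.35, not past the threshold) lay above the bright C1q probe sets. The remaining markers lay below them, with Cx3cr1, Fcer1g and Ptprc at 0.19, -0.01 and -0.02. Whether C1q or C4a/C4b rose beyond microglial genes was not tested.

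**Figure D4:**
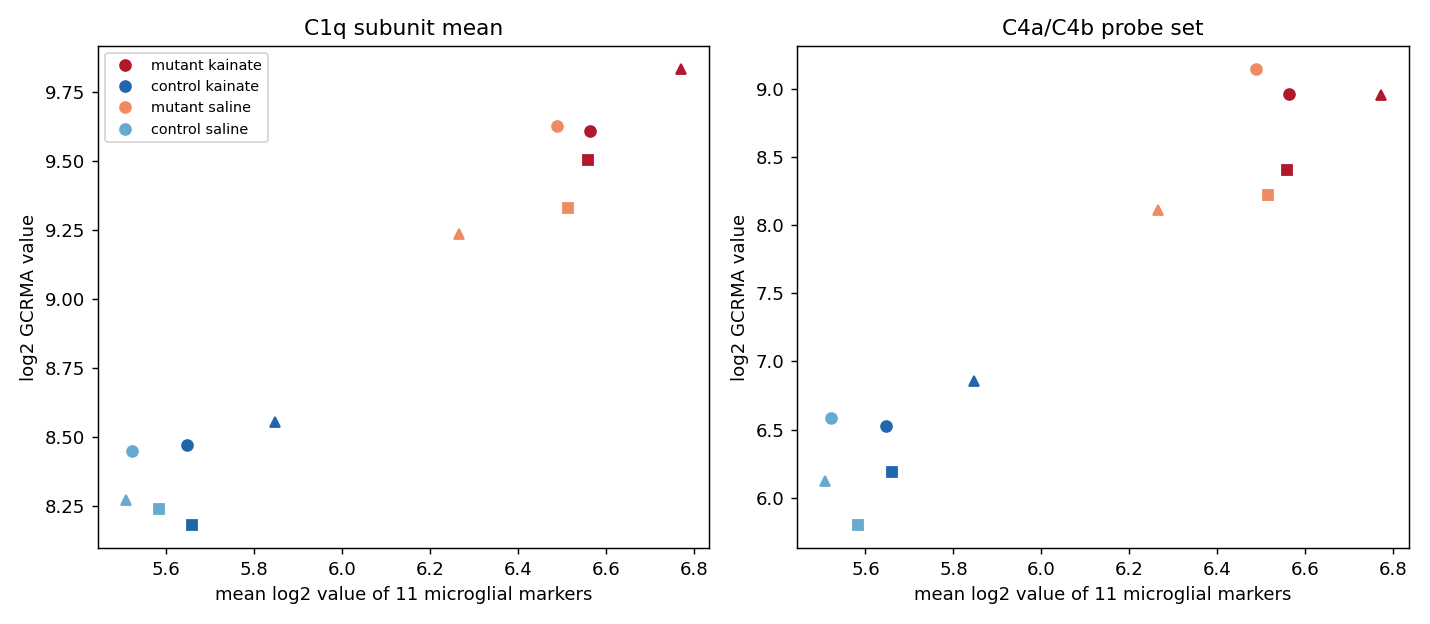
Log2 values of the C1q subunit mean (left) and of the C4a/C4b probe set (right) on each array, against the mean log2 value of 11 microglial markers on that array, with circles, squares and triangles for replicates 1, 2 and 3. Mutant arrays lie at 6.27 or more on the horizontal axis and control arrays at 5.85 or less, so the arrays form 2 separate clusters.

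The rest of the complement system was read from a list of 56 other genes, of which 36 were measured. For the averaged genotype difference 1 was higher in mutants, 0 lower and 35 did not pass in limma, with a median of -0.07. Under kainate the count was the same, and under saline, for kainate in mutants, for kainate in controls and in the interaction it was 0.

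Of 12 other components and proteases 0 passed, and their averaged differences ran from -0.18 to -0.02. The brightest of them were Masp2, a protease of the lectin pathway (-0.18, SE 0.09), C1ra, the C1q-bound protease (-0.02, SE 0.06), and the mannose-binding lectin Mbl2 (-0.08, SE 0.09). They lay near percentile 50 of the array or below.

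Of 13 regulators and C1q-binding proteins 1 passed. Clu, clusterin, an inhibitor of the terminal membrane attack complex that astrocytes and neurons make, had 12.04, 12.16 and 12.13 in mutant kainate arrays, against 11.68, 11.46 and 11.61 in control kainate arrays. Under saline it had 12.18, 12.34 and 12.28 in mutants, against 11.80, 11.85 and 11.93 in controls. On this probe set all mutant arrays lay above all control arrays, which held for 0.733% of all probe sets. Clu rose by 0.47 averaged (SE 0.06, adjusted p = 0.00476 in limma) and by 0.53 under kainate (SE 0.08, adjusted p = 0.0325), while under saline the difference was 0.41 (adjusted p = 0.185). Its other probe set gave 0.58 averaged (SE 0.10, adjusted p = 0.032 in limma), with genotypes that overlapped over all arrays. There the difference was 0.44 under kainate (SE 0.14, adjusted p = 0.53 in limma) and 0.71 under saline (SE 0.14, adjusted p = 0.168), so the call under kainate rests on 1 of the 2 probe sets. The averaged call held without each array in turn and was lost within replicates 2 and 3 (adjusted p = 0.0565 in limma). The averaged difference and that under kainate were both under 1.5-fold. The call under kainate was lost without any 1 of 9 arrays, the exceptions being mutant saline replicate 1 and control kainate replicates 1 and 3 (adjusted p from 0.0419 to 0.179 over the 12 fits). The next brightest regulators were Sez6, a neuronal complement-domain protein, at -0.57 (SE 0.12, adjusted p = 0.0791 in limma), and vitronectin, Vtn, at 0.42 (SE 0.13, adjusted p = 0.35). For Sez6 all mutant arrays lay below all control arrays (9.40 to 9.79 against 9.88 to 10.46). The share of all probe sets that separated in this direction was not counted.

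Of 7 receptors 0 passed. Itgb2, the shared chain of the phagocytic receptors CR3 and CR4, had an averaged difference of 0.65 (SE 0.17, adjusted p = 0.175 in limma), the endocytic receptor Lrp1 one of 0.13 (SE 0.08) and Cd93 one of -0.01 (SE 0.12). Of 4 C1q-like and pentraxin synaptic proteins 0 passed. Among these Nptx2, a synaptic pentraxin induced by neuronal activity, had kainate differences of 1.24 in mutants and 1.43 in controls (SE 0.42 each, adjusted p = 0.579 and 0.448 in limma), and a genotype difference of -0.14 averaged (SE 0.30).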

How the data were processed

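RNA from mouse hippocampi was hybridised to 12 Affymetrix arrays. The authors deposited log2 values, computed with GCRMA in R 2.4.1, per the submitters' processing notes. GCRMA corrects background by probe sequence, normalises quantiles and summarises probe sets, so values near its floor carry little information. Its version and whether the arrays were processed together are not given in the sources used here. The number of arrays limits the precision.

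Of 12488 probe sets, 66 controls were left out and 12422 tested, with no filter. The platform annotation gave 10833 of them 1 symbol, 396 several and 1193 none. Limma 3.58.1 in R 4.3.3 was fitted with 1 mean per group over all arrays, giving 8 residual degrees of freedom and 2.48 from the prior. All tests are two-sided, with Benjamini-Hochberg adjustment over all tested probe sets and a threshold of 0.05. SE and 95% intervals come from this fit. The fit was tested on simulated data.

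The members, the lists of other complement genes and of cell markers, and the tests were chosen with earlier results of these data known. Named genes were all members, other complement genes that passed, the 3 brightest per role and the 5 most alike probe sets per pattern, with Creb1 and Crem. The brightest probe set stood for a gene. Same-numbered arrays deviated together for replicates 1 and 2 but not in every pair of replicate 3 (lowest correlation -0.01). The replicate 3 correlations near 0 (-0.011 and -0.003) both involved the control kainate array, which stood apart. Without that array the replicate 3 pairs had 0.396 to 0.621. The numbers were not taken as pairs in the main fit, and a replicate block was run as an alternative. The alternatives were a replicate block, replicate 1 as a batch, only replicates 2 and 3, quantile normalisation, median centring, a filter at the median level, a trended robust prior, the compared arrays alone, averaging the probe sets of a gene, array weights (gene-by-gene method, since the default did not converge), a minimum 1.5-fold difference, and dropping single arrays in turn.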

Additional observations from a re-analysis of the deposited data

How the results depend on the processing

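The 12 arrays, each from a pool, set the precision, and values near the floor of the deposited scale (C3ar1, the dim C1qb probe set) carry little information. C1qa, the bright C1qb probe set, C1qc and C4a/C4b kept an adjusted p under 0.05 in limma for the averaged genotype difference in each of 22 alternatives, where the count was 4 to 5, but they were chosen on this contrast. The count under kainate, 4, was 1 within replicates 2 and 3, 2 after quantile normalisation, 0 with only the arrays compared and 2 to 4 without single arrays. The count under saline, 3, was 0 within replicates 2 and 3, 0 after quantile normalisation, 1 with probe sets averaged per gene, 1 with only the arrays compared and 1 to 3 without single arrays. Fits on 6 or 8 arrays have fewer samples, and the cause of the other changes was not tested. The count for kainate in mutants, 0, was 4 with array weights, and it was 0 in controls and in the interaction under every alternative run. The share of all probe sets that passed was not counted for the alternatives. With the replicate block the 6 counts stayed at 0, 0, 0, 4, 4 and 3, so the block changed no count. Same-numbered arrays deviated together in every pair of replicates 1 and 2 (0.368 to 0.848 and 0.302 to 0.583) but not of replicate 3 (-0.0109 to 0.621). The replicate 3 pairs without the control kainate array had 0.396 to 0.621. What same-numbered arrays share is not given in the labels.

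Signs turned for small kainate and interaction values, none of which passed in either setting. C1qa in controls was -0.0564 within replicates 2 and 3 and -0.0252 after median centring, with -0.0934 to 0.131 without single arrays. The bright C1qb probe set in controls was -0.0100 with array weights, and its interaction was -0.00867 after quantile normalisation and -0.0376 to 0.174 without single arrays. The interaction of the dim C1qb probe set was 0.00195 after quantile normalisation, 0.0438 after centring, 0.0279 with array weights, 0.0189 with probe sets averaged and -0.0667 to 0.0136 without single arrays. Its kainate values without single arrays ran from -0.0181 to 0.0447 in mutants and from -0.00686 to 0.0735 in controls. The interaction of C4a/C4b was 0.00589 after centring, 0.0852 with array weights and -0.28 to 0.25 without single arrays. Without single arrays kainate in controls gave -0.0816 to 0.230 for C1qc and -0.0314 to 0.205 for C3ar1, and kainate in mutants gave -0.0613 to 0.272 for Serping1. For Clu the call under kainate was also lost within replicates 2 and 3, above the median level and with probe sets averaged (adjusted p = 0.155, 0.0586 and 0.0976 in limma). The filter at the median level left out C3ar1 and the dim C1qb probe set. The interaction and the averaged difference have no fit with only the arrays compared, since they use all groups.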
